A study of Oryctolagus cuniculus with 16 samples.

Results

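The genes described here are abundant in O4-positive oligodendrocyte progenitor cells (OPC) and scarce in microglia sorted from the same kind of brain. A gene was taken when its mean over the 8 OPC libraries was at least 50 counts per 1000000 counts of its library (CPM) and at least 16 times its mean over the 8 microglia libraries. It also had to have 2 to 59 annotated exon entries (exon records over all its transcripts) and to span under 400000 bases, and genes on the mitochondrial chromosome or between 21800000 and 24200000 on chromosome 12 were left out. Of 23669 genes in the deposited tables, 464 (1.96%) met the rule. A further 60 passed both levels and were removed by structure or position. The members were thus chosen by the mean CPM of both sorts, so that abundance in OPC and scarcity in microglia are given below as descriptions with no test, while the difference between treatments was not part of it. Structure entered only through the limits on exon entries and span, and single libraries only through the means, where a library far above the others can carry a gene over the level.

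The libraries came from premature New Zealand rabbit kits with moderate-to-severe intraventricular haemorrhage (IVH, bleeding into the fluid spaces of the brain). All kits carried the haemorrhage and an adenovirus given into the ventricle, with its insert under the CMV promoter, which is active in many cell types: one virus, Ad-PPARg, encoded PPARg, a nuclear receptor for lipid ligands, together with GFP, and the control virus, Ad-GFP, encoded the fluorescent protein GFP without PPARg. At day 7, OPC were sorted by O4 and microglia by CD11b with low CD45 from the cerebral hemispheres, and 4 animals of each treatment gave a library of each sort. No kit without haemorrhage or without virus was part of the comparison. The 16 libraries came from 10 animals, of which 6 gave both sorts. Animals are named below by their labels (K188-11, K197-3, K197-4 and K196-12 for OPC after Ad-PPARg; K195-9, K195-11, K198-5 and K198-7 for OPC after Ad-GFP), in the order of replicates 1 to 4. The first part of these labels falls within one treatment each time, 3 values in the Ad-PPARg and 2 in the Ad-GFP OPC libraries. What it stands for is not stated, and its effect and that of treatment cannot be told apart.

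O4 is a sulfated-lipid antigen that appears on the oligodendrocyte lineage as progenitors become committed to form myelin, the insulating wrap of axons. These cells are lost or arrested in their maturation in the white matter of the preterm brain after haemorrhage. Their most abundant transcripts are known to include those for myelin proteins and lipid synthesis, which rise as a cell matures, and those for receptors and matrix proteins of the progenitor stage, which fall. The deposited tables identify genes by Ensembl rabbit identifiers and positions without names, and 0 identifiers matched the reference table of rabbit genes. Members therefore cannot be ordered by role, the O4 sort could not be checked against marker genes, and no sequence could be attached. Only microglia were sequenced beside the OPC, so "restricted" means against microglia. Genes of neurons, astrocytes or other cells carried into the O4 sort would meet the same rule.

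Total counts were 6.24 to 17.6 M (mega) per library and 6.56 to 15.8 M in OPC. OPC Ad-PPARg replicate 4 (K196-12, 12.4 M counts) stood apart from the other 7 OPC libraries: its Spearman correlation with them over the 464 genes was 0.527 to 0.797, against at least 0.892 among the other 7. Over all genes tested the same values were 0.893 to 0.941 and at least 0.958. Results on treatment and spread in OPC are given with and without it.

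The 464 genes ranged in mean OPC level from 50.04 to 6309 CPM, with a median of 133 CPM. There were 23 above 1000 CPM and 178 below 100 CPM, and 48 genes held 50% of all counts on the set. In every one of the 464 the lowest OPC library lay above the highest microglia library. The rule drew on these same values, which favours such a separation, and the share over all genes was not computed. The ratio of the OPC mean to the microglia mean ran from 16.03 to 182 with a median of 39.1, and was at least 100 in 47 genes. In bulk libraries fewer cells of a type and less RNA per cell cannot be told apart.

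**Figure D1:**
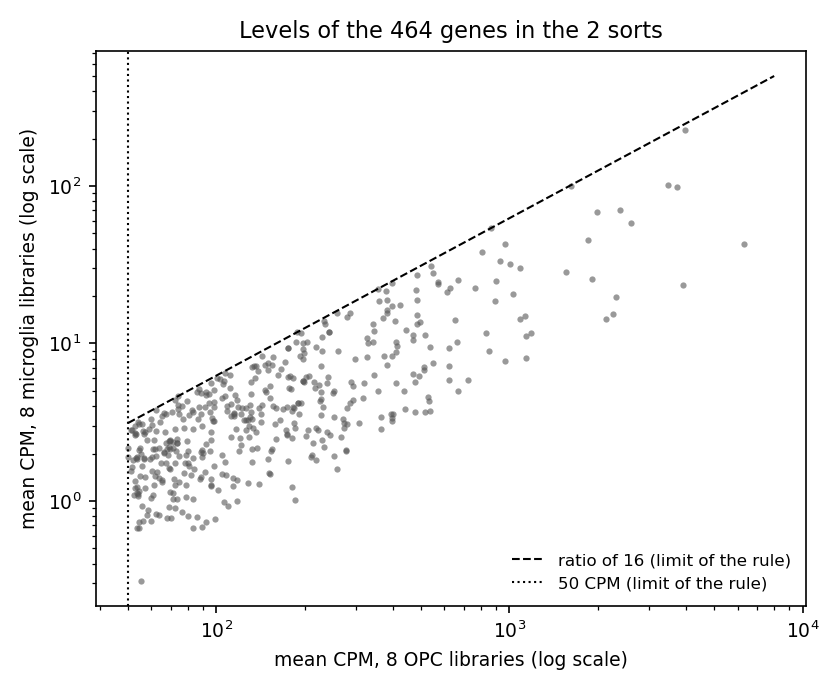
Mean CPM over 8 OPC libraries (horizontal, log scale) against mean CPM over 8 microglia libraries (vertical, log scale), 1 point for each of the 464 genes. The dotted line marks the rule's 50 CPM and the dashed line its ratio of 16, so that every point lies to the right of one and below the other, out to 6309 CPM.

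The gene with the highest level per kb of exon was ENSOCUG00000014800 (X:86329163-86439439, minus strand, 9 exon entries), with a mean of 2902 CPM per kb. After Ad-PPARg it stood at 4092, 1529, 2437 and 23117 CPM in OPC, and after Ad-GFP at 6508, 2935, 5614 and 4242 CPM. The 23117 CPM of K196-12 was 5.92 times the mean of the other 7 (3908 ± 1760 CPM, SD), and the 2 lowest values were both from K197 animals. Across the microglia libraries the gene ran from 5.50 to 144 CPM.

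The next 3 by level per kb were likewise highest in K196-12 and lowest in K197-3. The ranking uses the OPC mean, which includes K196-12, so that genes high in that library are favoured. It was not repeated without that library. ENSOCUG00000024997 (scaffold GL019202:101999-106857, plus strand, 4 entries, 2017 CPM per kb) stood at 3049, 1869, 2409 and 6126 CPM after Ad-PPARg and 4251, 3300, 3873 and 2853 CPM after Ad-GFP. ENSOCUG00000027924 (5:893116-911309, plus strand, 16 entries, 1916 CPM per kb) stood at 3432, 1784, 2159 and 8683 CPM after Ad-PPARg and 4902, 3635, 4270 and 2942 CPM after Ad-GFP. ENSOCUG00000013253 (19:42845926-42850021, plus strand, 4 entries, 1304 CPM per kb) stood at 1405, 703, 930 and 3837 CPM after Ad-PPARg and 1907, 1277, 1605 and 1265 CPM after Ad-GFP. In all 3 the Ad-GFP values lay inside the range of the Ad-PPARg values.

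The fifth and sixth were near neighbours on chromosome 14 with the opposite order in K196-12. ENSOCUG00000011671 (14:162986886-162987411, plus strand, 2 entries, 1012 CPM per kb) stood at 489, 688, 692 and 243 CPM after Ad-PPARg and 518, 511, 535 and 575 CPM after Ad-GFP. ENSOCUG00000027389 (14:163027922-163028707, plus strand, 4 entries, 972 CPM per kb) stood at 724, 825, 922 and 185 CPM after Ad-PPARg and 651, 646, 651 and 738 CPM after Ad-GFP. In both, K196-12 was the lowest library and both K197 animals the highest.

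Members had a larger median span than other abundant OPC genes, a property the rule limited only at 400000 bases. Their median span was 40652 bases, against 27891 in the 4029 genes that met the same structure and OPC level without the ratio, and 141 members (30.4%) spanned at least 100000 bases against 584 (14.5%) of those genes. In 351 genes restricted to microglia by the mirrored rule the median span was 16707 bases and 25 (7.12%) reached 100000. Median exon entries were 11, 13 and 9 and median exon lengths 3068.5, 2719 and 2475 bases in the 3 sets. On chromosome X lay 16 members (3.45%), against 85 (2.11%) of the other abundant genes. Unplaced scaffolds held 119 members and 1175 of the other abundant genes, with 74.4 and 70.8% of the 2 sets on chromosomes. Positions of 90 members (19.4%) overlapped another annotated gene, against 21.0% of the other abundant genes. Counts of such genes are less certain since strand use in counting is not given. Of the members, 31 (6.68%) lay next to another member, and the longest run held 3, at 10:33847874-34356993. Neighbours of their own set made up 8.55% of the microglia-restricted genes and 40.4% of the 4029, a far larger set. These are descriptions without a test.

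At the edges of the rule, ENSOCUG00000004821 (50.04 CPM) lay just inside and ENSOCUG00000004783 (49.97 CPM) just outside the level. ENSOCUG00000001825 (16.03-fold) lay just inside and ENSOCUG00000001497 (15.90-fold) just outside the ratio. Within 10% of a threshold were 30 members above and 25 genes below for the level, and 23 and 27 for the ratio. With K196-12 left out of the OPC mean the rule gave 472 genes, 442 of them the same, with 22 lost and 30 gained.

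The series asked how PPARg overexpression alters the OPC transcriptome. No member passed the threshold between Ad-PPARg and Ad-GFP in OPC (edgeR's quasi-likelihood test, Benjamini-Hochberg adjusted p under 0.05 over 13492 genes: 0 of 464, against a background of 0% of all genes). At an unadjusted p under 0.05 there were 2 members (0.431%), both higher, against 1.23% of all genes and 0.763% for higher. DESeq2, which gave 454 members an adjusted p, called 0 adjusted (background 0.0314%) and 3 unadjusted (background 0.923%). limma voom with sample quality weights gave 0 members adjusted (background 0.0667%) and 177 unadjusted, 66 of them higher (background 16.3%, and 8.67% for higher). The median log2 fold change of the members was 0.0035, with 80% of them between -0.17 and 0.27 and a median SE of 0.24, beside a median of 0.032 over all genes. The fold change was above 0 in 238 members (51.3%), against 57.5% of all genes.

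The member with the lowest p among those higher was ENSOCUG00000001992 (1:16514248-16543848, plus strand, 11 entries). It stood at 184, 259, 252 and 296 CPM after Ad-PPARg (248 ± 46.8, SD, n = 4) and at 112, 134, 180 and 174 CPM after Ad-GFP (150 ± 32.5, n = 4). All 4 Ad-PPARg libraries lay above all 4 Ad-GFP libraries, by a margin of a few CPM. The edgeR log2 fold change was 0.78 (SE 0.22, Benjamini-Hochberg adjusted p = 1.00), 0.59 without K196-12 and 0.89 without both K197 animals. ENSOCUG00000002250 (4:4884055-4909617, plus strand, 15 entries) stood at 341, 322, 323 and 264 CPM after Ad-PPARg and at 276, 232, 273 and 261 CPM after Ad-GFP, and its groups overlapped through K196-12. Its log2 fold change was 0.30 (SE 0.12, edgeR adjusted p = 1.00).

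The 2 lowest in p among those below 0 were within the spread of the libraries. ENSOCUG00000009718 (2:61233453-61343346, plus strand, 8 entries) stood at 76.8, 118, 121 and 98.7 CPM after Ad-PPARg and 130, 118, 132 and 128 CPM after Ad-GFP. ENSOCUG00000010908 (19:8104882-8440637, minus strand, 7 entries) stood at 52.4, 68.0, 83.4 and 49.7 CPM after Ad-PPARg and 88.0, 73.0, 73.2 and 73.2 CPM after Ad-GFP. The groups overlapped in both, and the log2 fold changes were -0.25 (SE 0.15) and -0.25 (SE 0.16), with an edgeR adjusted p of 1.00 in both.

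**Figure D2:**
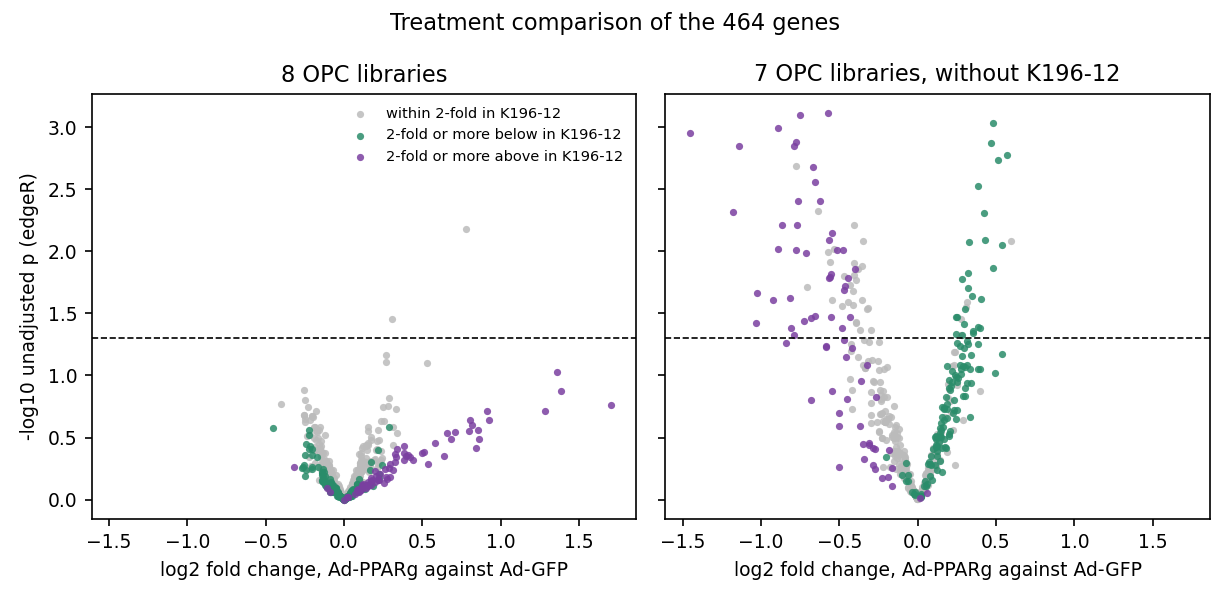
Log2 fold change of Ad-PPARg over Ad-GFP in OPC (horizontal) against -log10 of the unadjusted edgeR p (vertical) for the 464 genes, with all 8 libraries (left) and without K196-12 (right); the dashed line is at the unadjusted 0.05 threshold. Above the line lie 2 genes on the left and 97 on the right, and colours mark the genes at least 2-fold above (purple) or below (green) the other libraries in K196-12.

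Leaving out K196-12 raised the number of members at an unadjusted p under 0.05 from 2 to 97 (20.9%), against 7.59% of 13763 genes, of which 30 were higher (background 3.26%) and 67 lower (background 4.33%). None passed the adjusted threshold (0 of 464, background 0.00727%, lowest edgeR adjusted p 0.252). When K196-12 was left out and counts were summed per label prefix, 39 were left, 6 of them higher (background 2.04%, and 0.771% for higher). When both K197 animals were left out in place of K196-12, the count was 76, of which 49 were higher (background 15%, and 8.99% for higher). Fold changes of the most abundant members turned with these libraries. ENSOCUG00000014800 had a log2 fold change of 0.86 with all 8 libraries, -0.84 without K196-12 and 1.76 without both K197 animals. ENSOCUG00000027924 had 0.16, -0.68 and 0.86. The 464 were chosen with K196-12 in the OPC mean, and 22 of them were not members without it. The counts above without K196-12 were not repeated on members chosen without it. What part the rule had in those counts was not tested.

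The share of a library's counts on the 464 genes did not separate the treatments. It was 12.5, 12.1, 13.2 and 17.9% after Ad-PPARg (13.9 ± 2.71%, SD, n = 4) and 14.6, 12.2, 14.0 and 13.4% after Ad-GFP (13.6 ± 1.03%, n = 4). K196-12 was the highest of the 8, and the other 3 Ad-PPARg libraries lay within or near the Ad-GFP range. The difference of 0.331 percentage points had a two-sided exact permutation p of 0.914, where 4 against 4 can give 0.0286 at the smallest. Without K196-12 the difference was -1.003 (exact permutation p = 0.2), and with totals scaled by TMM it was 0.984.

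K196-12 was compared with the other 7 OPC libraries gene by gene, without a test since it is 1 library. Of the 464 members, 374 (80.6%) lay beyond the range of the other 7, 156 above (33.6%, against 21.1% of all genes tested) and 218 below (47.0%, against 44.5%). Over all genes tested the share beyond the range was 65.6%, and over the 4029 other abundant genes 73.5%. In each of the other OPC libraries the corresponding share of members was 4.96% (K195-9, background 4.73%) to 35.3% (K197-3, background 28.9%). Those libraries were compared with ranges that include K196-12. A gene has only 1 highest and 1 lowest library, so the share of K196-12 limits theirs. At least 2-fold from the mean of the other 7 were 71 members above (15.3%, background 4.77%) and 129 below (27.8%, background 19.7%). Such members made up 0 to 8.84% in the other OPC libraries, each set against a mean that includes K196-12. The OPC mean that chose the members includes K196-12, so that genes high in it are favoured: among the 472 genes chosen with it left out, 55 (11.7%) were at least 2-fold above in it and 151 (31.99%) at least 2-fold below. The median log2 difference of the members was -0.24 on raw totals, beside -0.27 over all genes. With TMM scaling, which sets libraries level on the bulk of their genes, the members' median was -0.0076, with 95 members at least 2-fold above and 93 below (backgrounds 7.97 and 14.8%).

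**Figure D3:**
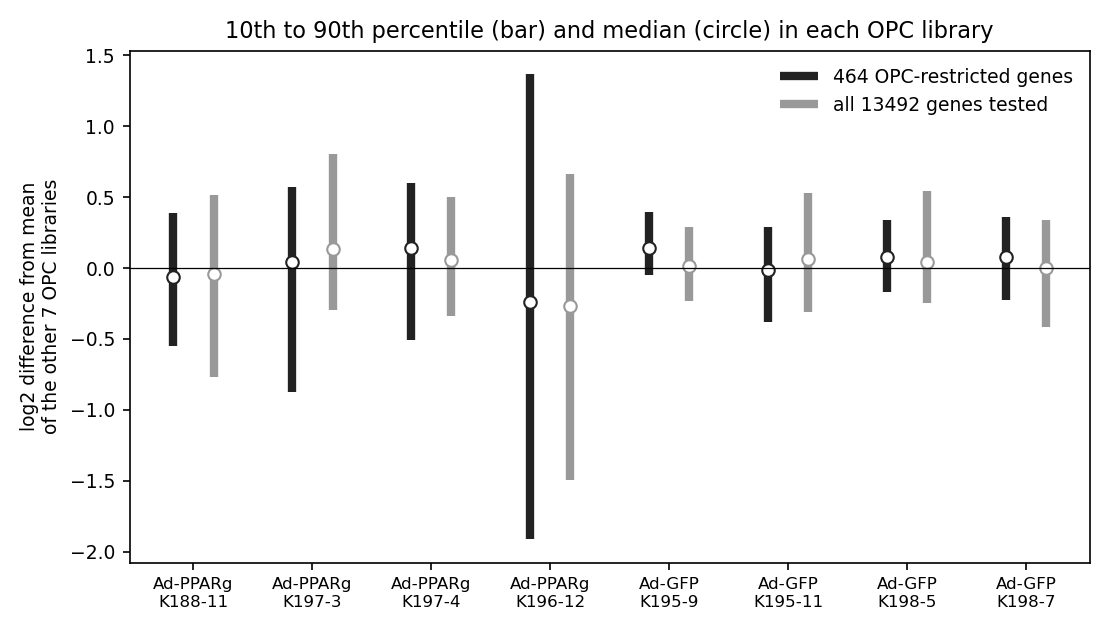
Log2 difference of each OPC library from the mean of the other 7, with bars from the 10th to the 90th percentile and circles at the median, for the 464 genes (black) and for all 13492 genes tested (grey). The bar of the 464 genes is widest in K196-12, from -1.91 to 1.37 with the median at -0.24.

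ENSOCUG00000007445 (3:97128688-97134093, minus strand, 4 entries) lay furthest above. It stood at 15.2, 14.3, 22.7 and 478 CPM after Ad-PPARg and at 54.8, 23.4, 54.5 and 54.4 CPM after Ad-GFP, so that K196-12 was 14.0 times the mean of the other 7 (34.2 ± 19.4 CPM, SD). The other 3 Ad-PPARg libraries were below every Ad-GFP library. Since the mean of the other 7 is under 50 CPM, the gene is a member only through K196-12, and its departure there is in part set by the rule. Its edgeR log2 fold change was 1.71 with all 8 libraries and -1.45 without K196-12 (SE 0.31, edgeR adjusted p = 0.272). ENSOCUG00000009198 (7:96149410-96156719, minus strand, 7 entries) followed, at 50.004, 18.6, 30.6 and 356 CPM after Ad-PPARg and 78.9, 25.9, 60.7 and 46.2 CPM after Ad-GFP. It too is a member only through K196-12, with a mean of 44.4 CPM in the other 7.

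ENSOCUG00000008031 (19:44023978-44036743, minus strand, 13 entries) lay furthest below. It stood at 148, 185, 168 and 10.5 CPM after Ad-PPARg and at 123, 144, 129 and 128 CPM after Ad-GFP, with K196-12 at 10.5 CPM against 146 ± 23.0 CPM in the other 7. ENSOCUG00000004486 (scaffold GL018703:6622302-6697126, minus strand, 27 entries) stood at 95.9, 241, 246 and 14.4 CPM after Ad-PPARg and 140, 111, 120 and 146 CPM after Ad-GFP. In each of these 2 genes both K197 animals were the highest libraries.

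The genes that departed in K196-12 also varied among the other 7 libraries. Summed over the 71 genes at least 2-fold above in K196-12 and divided by the sum over the 129 at least 2-fold below, CPM gave a ratio of 10.4 in K196-12. The ratio was 0.456 in K197-3, 0.603 in K197-4, 0.950 in K198-7, 1.09 in K188-11, 1.12 in K195-11, 1.41 in K198-5 and 1.56 in K195-9. The K197 animals thus lay at the other end from K196-12, and the Ad-GFP animals and K188-11 between. Among the 7, K197-3 was above their mean in 1 of the 71 and in 124 of the 129, and K197-4 in 3 and in 124. The fold change of the 3 remaining Ad-PPARg animals over Ad-GFP was above 0 in 2 of the 71 (median log2 -0.55) and in 119 of the 129 (median log2 0.20). It was above 0 in 87 of the 264 between (median log2 -0.076). The sets were formed from the values of K196-12 against the same 7 libraries, and these counts are descriptions. The sets did not differ much in structure: spans of at least 100000 bases made up 25.4% of the 71, 26.4% of the 129 and 33.7% of the 264 between.

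**Figure D4:**
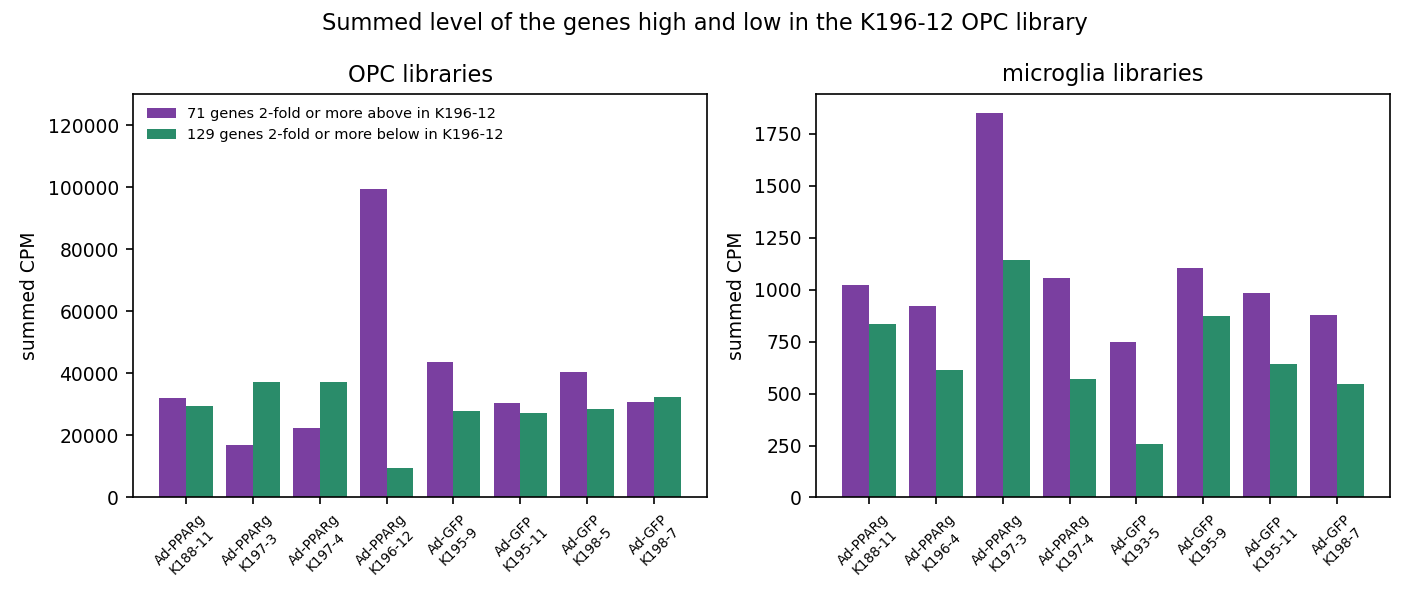
Summed CPM of the 71 genes at least 2-fold above (purple) and the 129 at least 2-fold below (green) in K196-12, for each OPC library (left) and each microglia library (right), on separate linear axes from 0. In OPC the 71 sum to 99484 CPM in K196-12 and 16952 CPM in K197-3, and the 129 to 9528 and 37213 CPM.

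Over the 8 OPC libraries the first principal axis of the members held 83.7% of their variance. Without K196-12 the first axis held 55.9% and set K197-3 and K197-4 apart from the other 5. Other measures of K196-12 are given beside these differences, and their part in them was not tested. Mitochondrial genes downstream of position 7000 summed to 80.0 CPM in K196-12 and 107 CPM in K188-11, against 13659 to 18179 CPM in the other 6 OPC libraries. In microglia they summed to 85.9 CPM in K188-11, 50.9 CPM in K196-4 and 78.1 CPM in K193-5, against 8696 to 19476 CPM in the others. The OPC library of K188-11, also low in that block, had 25% of members beyond the range of the other 7 (background 39.2%). The share of counts on microglia-restricted genes was 0.491% in K196-12, within the 0.398 to 0.841% of the other OPC libraries. K196-12 and K188-11 are each the only OPC library of their label prefix, and the title of K196-12 lacks the running number that the other 15 carry.

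The spread between animals of a treatment was larger at the median member than at the median of other abundant genes, with K196-12 and without it. The median SD of log2 CPM (TMM scaling, prior count 2) within treatment groups was 0.38 over the members, 0.25 over the 4029 other abundant genes and 0.35 over all genes tested. An SD of 1 or more was found in 33 members (7.11%, background 5.97%) and in 1.49% of the other abundant genes. Without K196-12 the medians were 0.22, 0.17 and 0.24, and 1 member (0.216%, background 3.82%) reached an SD of 1. Within Ad-GFP alone the members' median was 0.17, and within Ad-PPARg 0.51 with K196-12 and 0.23 without it. The same 3 medians were 0.19, 0.43 and 0.26 over all genes tested. Over the other abundant genes they were 0.13, 0.32 and 0.19, so the step between treatments was not particular to the members.

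The member with that SD was ENSOCUG00000004008 (9:114681593-114723824, plus strand, 12 entries), at 108, 19.4, 25.1 and 320 CPM after Ad-PPARg and 76.2, 16.001, 126 and 76.4 CPM after Ad-GFP. Its SD was 1.33 without K196-12. With all 8 libraries it was 1.70, second to the 1.85 of ENSOCUG00000007445, which had 0.53 without K196-12. ENSOCUG00000004008 was low in K195-11 as well as in the K197 animals. The steadiest member was ENSOCUG00000016985 (scaffold GL018803:798735-896934, plus strand, 13 entries; SD 0.054), at 75.1, 81.6, 85.6 and 68.7 CPM after Ad-PPARg and 86.7, 81.8, 80.8 and 83.1 CPM after Ad-GFP. ENSOCUG00000001228 (2:154837466-154863198, minus strand, 6 entries; SD 0.066) came next, at 148, 152, 154 and 124 CPM and 159, 152, 169 and 167 CPM. K196-12 was the lowest library in both, on raw totals.

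In microglia the 464 genes left a trace that differed between animals. They held 0.384% of counts in K188-11, 0.305% in K196-4, 0.593% in K197-3 and 0.308% in K197-4 after Ad-PPARg (mean 0.398 ± 0.136%, SD, n = 4). After Ad-GFP they held 0.160% in K193-5, 0.408% in K195-9, 0.321% in K195-11 and 0.269% in K198-7 (mean 0.289 ± 0.104%, n = 4). K197-3 was the highest and K193-5 the lowest, and the other 6 libraries of both treatments overlapped. The difference of 0.108 percentage points had a two-sided exact permutation p of 0.314. It was 0.0429 without K197-3 and 0.0649 without K193-5. The counting interval is narrow beside this spread: the 95% Wilson interval of K193-5 is 0.157 to 0.162%, for counting error only.

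**Figure D5:**
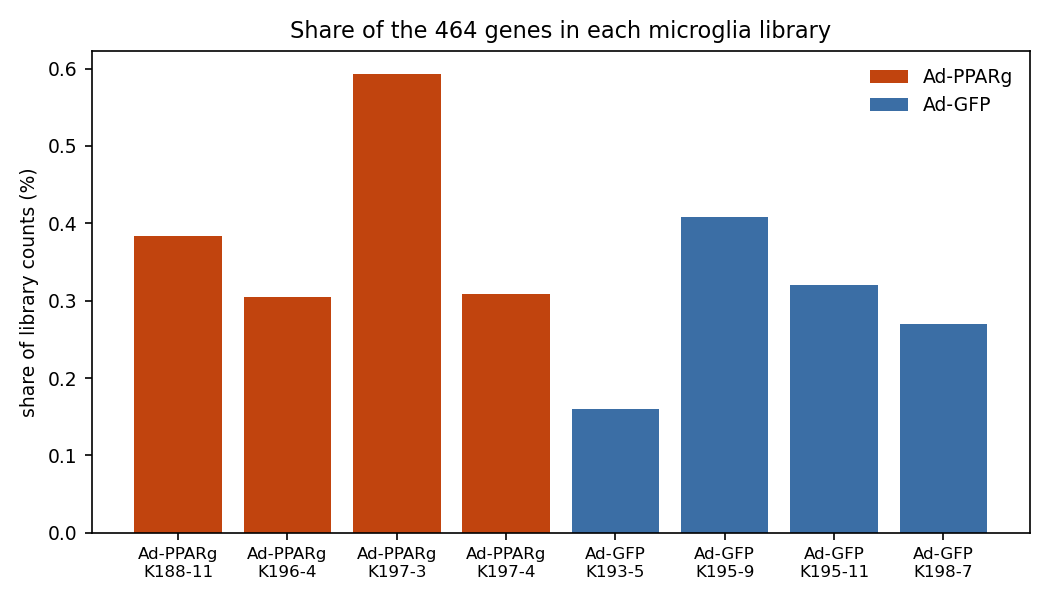
Share of the counts of each microglia library on the 464 genes, in percent, 1 bar per library, coloured by treatment. K197-3 stands highest at 0.593% and K193-5 lowest at 0.160%, with the other 6 libraries of both treatments between.

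Set against the OPC library of the same animal, the summed CPM of the members in microglia came to 3.08% in K188-11, 4.92% in K197-3 and 2.33% in K197-4 after Ad-PPARg. It came to 2.79% in K195-9, 2.63% in K195-11 and 2.00% in K198-7 after Ad-GFP, and the mean over the 6 animals was 2.96 ± 1.03% (SD). K197-3 was the highest of the 6. The microglia libraries without an OPC partner held 2.22% (K196-4) and 1.16% (K193-5) of the OPC mean. In the other direction, microglia-restricted genes in OPC summed to 2.25% of their level in the same animal's microglia in K188-11, 4.32% in K197-3, 2.30% in K197-4, 2.38% in K195-9, 2.41% in K195-11 and 3.14% in K198-7. K197-3 was highest in both directions. Whether these counts are RNA of OPC in the microglia sort or expression by microglia was not tested.

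The 2 outer microglia libraries were outer for most members. K197-3 was the highest of the 8 microglia libraries in 298 members (64.2%, against 16.4% of all genes tested), and K193-5 the lowest in 390 (84.1%, against 26.3%). The median member lay 0.93 above the mean of the other libraries on the log2 scale in K197-3 and 1.35 below it in K193-5. The SD of a member over the microglia libraries had a median of 0.72 on the log2 scale, and 0.41 once each library's median over the members was taken out. The highest microglia library exceeded the lowest by a median of 7.73-fold, by at least 10-fold in 159 members and by under 2-fold in 12. Left out of this median and these counts were 3 members with 0 in a microglia library, for which no fold range exists. By the ratio of microglia to OPC, the median range was 11.3-fold in the 116 members with the smallest ratio and 5.56-fold in the 116 with the largest. Those 3 belong to the 116 with the smallest ratio and are left out of its median range too. The lowest library of a member held a median of 6 counts in the set with the smallest ratio and 21 in that with the largest. A range widens at low counts by counting error, whose part was not tested. ENSOCUG00000027924, the member highest in microglia at a mean of 229 CPM, ran only from 201 to 294 CPM across them.

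Which members were high in an animal's OPC did not carry over to its microglia in one direction. Across the 464 genes, the deviations of a microglia library from the members' means had a Pearson correlation with those of the same animal's OPC library of -0.173 in K188-11, -0.229 in K197-3, -0.112 in K197-4, 0.010 in K195-9, 0.163 in K195-11 and 0.072 in K198-7. Each OPC deviation was taken from the mean of the other 7 OPC libraries, K196-12 included, and was not repeated without it. With the OPC library of K196-12, the correlation was 0.199 in the microglia of K197-3 and 0.147 in those of K197-4. It was -0.179 to 0.078 in the other microglia libraries. These correlations are descriptions across genes, which share their library and its depth and are not independent. The ratio of the 71 to the 129 genes, 0.456 and 0.603 in the OPC of the K197 animals, was 1.62 and 1.86 in their microglia and 1.22 to 2.88 in the other microglia libraries.

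The largest trace relative to OPC was in ENSOCUG00000001825 (7:127097340-127175277, plus strand, 8 entries) and ENSOCUG00000004042 (13:123062712-123132055, minus strand, 31 entries), each at 6.24% of its OPC mean. They ran from 1.19 to 9.77 CPM and from 3.34 to 21.6 CPM over the microglia libraries. The smallest was in ENSOCUG00000009656 (21:3122169-3124764, minus strand, 10 entries), at 0.549%. Its values rest on few counts. It stood at 0.160, 1.01, 3.37 and 0.656 CPM in microglia after Ad-PPARg and at 0.297, 0.820, 1.82 and 0 CPM after Ad-GFP, where the count of 0 in K198-7 allows up to 0.452 CPM. ENSOCUG00000023884 (scaffold GL018722:395629-421928, plus strand, 5 entries), at 0.561%, ran from 0.0743 to 0.843 CPM.

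No member passed the threshold between the treatments in microglia by edgeR's quasi-likelihood test (adjusted p under 0.05: 0 of the 456 members that passed the filter on low counts, against 0% of 13041 genes). At an unadjusted p under 0.05 there were 14 members (3.07%), all higher, against 11.4% of all genes and 4.88% for higher. The fold change was above 0 in 405 of the 456 (88.8%), against 53.6% of all genes, with a median of 0.44 and a median SE of 0.53 on the log2 scale. The members share these 8 libraries, so their signs are not separate observations. Without K197-3 the fold change was above 0 in 313 of 452 (background 53.8%), without K193-5 in 342 of 463 (background 55%), and without both in 182 of 452 (background 54.1%), where the median was -0.11. DESeq2, which gave 261 members an adjusted p, called 1 at under 0.05 (background 0.933%), and limma voom with sample quality weights gave 9, all higher (background 9.85%).

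The 1 member called by DESeq2 was ENSOCUG00000001992, the same gene that had the lowest p in OPC, and it is named in microglia after its values were seen. It stood at 10.9, 9.76, 15.8 and 12.3 CPM after Ad-PPARg (12.2 ± 2.63, SD, n = 4) and 2.75, 5.04, 4.49 and 8.44 CPM after Ad-GFP (5.18 ± 2.38, n = 4), and the groups did not overlap. The log2 fold change was 1.20, with an adjusted p of 0.0341 by DESeq2 and 0.409 by edgeR (SE 0.30). Whether its fold change differs between microglia and OPC was not tested. Its mean in microglia was 4.37% of that in OPC. Since 6 animals gave both sorts, the sorts are not separate observations of this gene.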

How the data were processed

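RNA from sorted rabbit OPC and microglia was sequenced as paired reads on an Illumina HiSeq instrument, per the labels' protocols. The authors deposited whole-number read counts per gene, 1 table per library, not normalized. Tools in the submitters' processing notes are Subread 1.5.2, STAR 2.5.2b and bcl2fastq 2.17, with no roles stated. For genome build, annotation release and strand use, the value is not given in the sources. Coordinates are therefore those of the deposited tables, and counts of overlapping genes may be shared or lost.

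CPM are counts over the raw library total. Members and lists were chosen with earlier results of these data known. Treatment was fitted on all genes within each sort, 4 against 4 libraries, with edgeR 4.0.16 (quasi-likelihood, robust, TMM scaling, default filter on low counts, Benjamini-Hochberg adjustment at 0.05; R 4.3.3). DESeq2 1.42.0, limma 3.58.1, other scalings, no filter, sums per label prefix and left-out libraries were alternatives. The fits were tested on simulated data. The SE is the fold change over the square root of F. Shares were compared by two-sided exact permutation. Single libraries, spread and trace were described without a test.

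By rule, members were named for the 6 highest levels per kb and, 2 each way, for the lowest p in OPC, the departure of K196-12, the microglia ratio, the SD and the thresholds. Replicate numbers follow the order of deposit and pair nothing. By the labels, no animal gave more than 1 library to a group, and total counts were 6.24 to 17.6 M (mega). In microglia the lowest library of a member held a median of 10 counts, so that depth limits single values there.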

Additional observations from a re-analysis of the deposited data

Results flagged for a closer look

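In 54 groups of 4 libraries, over the named genes, 6 held a library whose gap to its nearest neighbour exceeded Dixon's 95% critical share of the group's range, and chance alone gives about 1 such library in 20 groups. In OPC after Ad-PPARg, replicate 4 (K196-12) stood out upwards in 3 genes. ENSOCUG00000014800 was at 23117 CPM there and at 1529 to 4092 CPM in the other 3 libraries. ENSOCUG00000007445 was at 478 CPM there and at 14.3 to 22.7 CPM in the others. ENSOCUG00000009198 was at 356 CPM there and at 18.6 to 50.004 CPM in the others. The first gene was named for its level, on a mean of 6309 CPM that includes this library, against 3908 CPM in the other OPC libraries. The other 2 were named for this very departure and are members only through that library. The groups share libraries and the genes were picked, so the chance rate does not hold strictly for them.

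Among OPC libraries after Ad-GFP, ENSOCUG00000007445 was low in replicate 2 (K195-11), at 23.4 CPM against 54.4 to 54.8 CPM. ENSOCUG00000027389 was high in replicate 4 (K198-7), at 738 CPM against 646 to 651 CPM. ENSOCUG00000010908 was high in replicate 1 (K195-9), at 88.0 CPM against 73.0 to 73.2 CPM.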

How the results depend on the processing

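In OPC, 0 members passed the adjusted threshold under every alternative run. The number at an unadjusted p under 0.05, 2 in the reported fit, was 177 with limma voom and sample quality weights, 1 each with no filter, with counts summed per label prefix and with the prefix as a random factor, 39 without K196-12 and with summed prefixes, 76 without both K197 animals, and 1 to 97 with 1 library left out. The difference in member share, 0.331 percentage points, ran from -1.003 to 0.948 when single libraries were dropped. Dropping K196-12, the highest share after Ad-PPARg (17.9%), gave -1.003. Dropping K195-11, the lowest after Ad-GFP (12.2%), gave -0.126. Why the shares of these libraries differ was not tested. It was 0.984 with TMM scaling, 0.192 without mitochondrial genes and 0.221 for members of at least 32-fold. The difference in microglia, 0.108, was 0.0607 for the latter. In microglia, 0 called members became 1 with DESeq2 and 9 with limma voom and sample quality weights. The 14 at an unadjusted p under 0.05 became 28 with those weights, 7 with summed prefixes, 8 with the prefix as a random factor, 7 without K197-3 and K193-5, and 4 to 33 with 1 library left out. The median log2 difference of K196-12, -0.24, was -0.0076 with TMM scaling and -0.38 for members chosen without it. The median SD, 0.38, was 0.22 to 0.42 with 1 library left out. Alternatives leaving out both K197 animals, K197-3 with K193-5, or K196-12 with summed prefixes were chosen after seeing the data. No paired analysis was possible because no animal received both treatments and replicate numbers follow the order of deposit.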
